A study of Mus musculus with 3 samples.

Results

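The genes described here are 8 regulators of the neural crest and of mesenchymal cells: the receptor gene Ngfr and the transcription factor genes Snai1, Snai2, Twist1, Twist2, Sox9, Tfap2a and Foxd3. They were chosen by name. Each has 1 probe set (a group of probes summarised to 1 value) on the array, so that the set holds 8 of 28856 probe sets and 8 of 19938 genes with a symbol. They were measured in mouse soft tissue sarcoma material of an inducible EWS/ATF1 model. EWS/ATF1 is the fusion of an RNA-binding protein with a CREB-family transcription factor that is found in human clear cell sarcoma, a tumor with features of neural crest-derived cells. All 3 RNA samples came from a mixed C57/BL6, 129 and ICR background. By their labels, the control array carries RNA of a tumor cell line kept at 0 microg/ml doxycycline, and the high doxycycline array carries RNA of cells given 0.2 microg/ml for 24 h. By its label, the tumor array carries RNA taken straight from a tumor of a mouse that had received doxycycline for 3 months. The labels add the number 1297 to the control and high doxycycline arrays and 1281 to the tumor array, without saying what it counts. The promoter or cell type that drives the transgene was not given in the sources used here.

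Neural crest cells are a transient population at the border of the neural plate that leaves the neuroepithelium and gives rise to peripheral neurons, Schwann cells, pigment cells and facial skeleton. Tfap2a and Foxd3 act early, in specifying crest cells. Snai1, Snai2, Twist1 and Twist2 are repressors of epithelial genes used in epithelial-mesenchymal transition (EMT), Sox9 supports crest and cartilage, and Ngfr, the low-affinity neurotrophin receptor p75, marks crest stem cells and Schwann cell precursors.

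There is 1 array per group, so no difference could be tested, no SD exists and every fold describes these arrays alone. Genes of most tissues examined went against the labels. In the order control, high doxycycline and tumor, 18, 2 and 1 of 19 macrophage genes exceeded the array median, with summed intensities of 35198, 3179 and 2105. For endothelium the numbers were 14, 3 and 3 of 16 genes (sums 17226, 4138 and 3345), for skeletal muscle 13, 5 and 4 of 15 (34501, 2882 and 2974) and for fibroblast matrix 20, 12 and 14 of 20 (75697, 9480 and 10676). Keratinocyte genes had no such excess on control, with 2, 3 and 3 of 12 (11619, 12699 and 11017). Single genes also departed from the rest, the macrophage gene Cd14 with 650, 914 and 158 and the muscle gene Mb with 464, 378 and 754. As sets, the macrophage, endothelial, muscle and fibroblast matrix genes were thus brightest on the array labelled as an untreated culture. That array also stood apart over all probe sets, with a Pearson r of 0.928 to high doxycycline and 0.917 to tumor, against 0.991 between those (across probe sets of 1 array each, which are no replicates). Whether labels were exchanged between arrays is not settled by the files, so every direction and fold below holds for the array so labelled, and not for a tumor or a culture as such. Values were compared as log2(intensity + 1). Disagreement was the highest minus the lowest log2 difference among probe sets of the same gene that lay above the median on both arrays. Over 534 genes with several such probe sets it had a median of 0.33 when high doxycycline was set against control. The median was also 0.33 for the pair tumor and control (530 genes), and it was 0.054 for the pair tumor and high doxycycline (629 genes). In the same order the 95th percentiles of this disagreement were 1.58, 1.64 and 0.42. Exactly equal values on both arrays of a pair were held by 21.6%, 16.9% and 34.6% of all probe sets, in that order. The reason was not given in the sources used here. An equal value counts as a difference of 0, and the part of such values in the narrow spread of the last pair was not tested. None of the 8 genes has a second probe set to check it by.

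A gene was called bright in a comparison when its higher value exceeded the median of all probe sets on the array in question. That median was 250.0 for control, 226.7 for high doxycycline and 219.8 for tumor. Ngfr, Snai1, Twist1, Twist2, Sox9 and Tfap2a, 6 of the 8, lay above the median on every array. Snai2 did so on tumor alone, and therefore entered the comparisons with tumor through the array on which it was high. Foxd3 lay below the median on all 3 arrays.

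**Figure D1:**
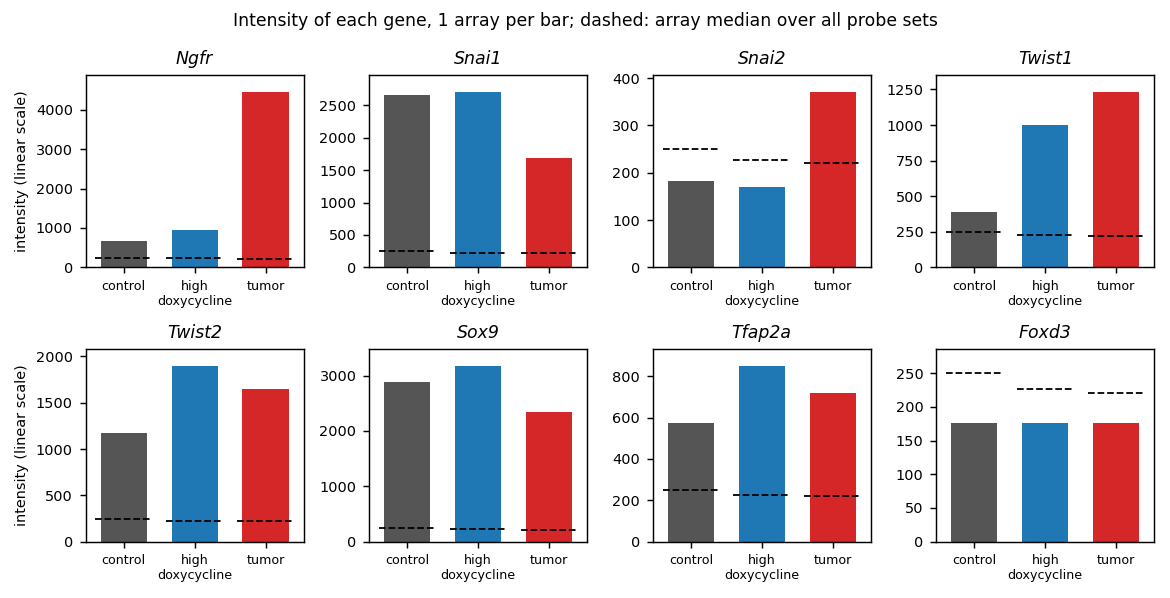
Deposited intensity (linear scale, y axis from 0, a separate axis for each gene) of the 8 genes on each of the 3 arrays, with 1 bar per array and the array median over all probe sets as a dashed line. Ngfr stands at 4450 on tumor against 669 and 957, Twist1 is low on control at 390, Snai2 passes the median on tumor alone, and the bars of Foxd3 are equal and below all 3 medians.

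Ngfr had an intensity of 669 on the control array, 957 on the high doxycycline array and 4450 on the tumor array. The array labelled tumor stood far above the others, which lay close together. The log2 difference was 2.22 between tumor and high doxycycline (4.65-fold), 2.73 between tumor and control (6.64-fold) and 0.52 between high doxycycline and control (1.43-fold). The first of these is beyond the 95th percentile of 0.42 for the disagreement of probe sets, and it was the 9th highest of 11212 bright genes. The difference between tumor and control was also beyond its 95th percentile of 1.64, and ranked 121 of 12010. That between high doxycycline and control was not, and 49.9% of 11933 bright genes differed at least as much. Between tumor and high doxycycline, the pair in which Ngfr stood out, most macrophage, endothelial and muscle genes were dim on both arrays, by the counts given above. The fibroblast matrix genes were somewhat higher on tumor, with a median difference of 0.36 over 14 bright genes, of which 1 was at least 2-fold brighter and 0 dimmer. Col6a1, a collagen VI gene, had 584 on high doxycycline and 1249 on tumor. The 5 bright muscle genes had a median difference of -0.20, with Ckm at 238 and 210 but the myoglobin gene Mb at 378 and 754. The 3 bright endothelial genes had a median of -0.039, with Egfl7 at 1574 and 764 but Plvap at 524 and 681. The macrophage gene Cd14 had 914 and 158. Of 13 measured Schwann cell genes, 4 exceeded the median on each of these arrays and 8 on control. Their summed intensities were 16924 (control), 19746 (high doxycycline) and 18226 (tumor). Most of each sum is the myelin gene Pmp22 (10587, 13198 and 11656) and S100b (3574, 4256 and 4156). The 8 genes bright against control had median differences of -0.33 on high doxycycline and -0.53 on tumor. Sox10, the defining factor of crest-derived glia, was just above the median on control (253) and below it on high doxycycline and tumor (222 and 200). Pmp22, S100b and the adhesion gene L1cam (516 and 799) were bright on both high doxycycline and tumor. The part of these cells in the Ngfr difference was not tested.

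Twist1, a basic helix-loop-helix factor, had intensities of 390 (control), 1001 (high doxycycline) and 1232 (tumor). Here control was low, and the other arrays were near each other. Twist1 was 2.56-fold brighter on high doxycycline than on control (log2 1.36) and 3.15-fold brighter on tumor (log2 1.66), while tumor exceeded high doxycycline by 0.30 (1.23-fold). The value of 1.66 lay just beyond the 95th percentile of 1.64, and that of 1.36 was below its 95th percentile of 1.58. At least as large a difference was held by 11.9% of 12010 bright genes between tumor and control. Between high doxycycline and control the share was 15.7% of 11933. Its relative Twist2 had 1175, 1893 and 1649, with high doxycycline the highest and control the lowest. Twist2 was 1.61-fold brighter on high doxycycline than on control and 1.40-fold brighter on tumor, below 2-fold in both. The log2 difference of Twist1 was larger than that of Twist2 by 0.67 for high doxycycline against control and by 1.17 for tumor against control. These gaps are the same under a shift of a whole array. As sets, the macrophage, endothelial, muscle and fibroblast matrix genes are higher on the very array on which both Twist genes were lowest. Their part in this difference was not tested. In bulk RNA, fewer cells of a type and less RNA per cell cannot be told apart.

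Of the Snail zinc finger genes, Snai1 was lowest and Snai2 highest on the tumor array. Snai1 had 2661 (control), 2704 (high doxycycline) and 1690 (tumor), so that the first pair was close (log2 difference 0.023, and -0.28 under quantile normalization) and tumor was the lowest. Snai1 was 1.60-fold dimmer on tumor than on high doxycycline (log2 -0.68, beyond the 95th percentile of 0.42), and 7.21% of 11212 bright genes differed at least as much. It was 1.57-fold dimmer on tumor than on control (log2 -0.65, within 1.64), as much as or less than 44.5% of 12010 bright genes. Snai2, the Slug gene of migrating crest cells, had 182, 170 and 371, with tumor the highest and the others below the median. It was 2.18-fold brighter on tumor than on high doxycycline (log2 1.12) and 2.03-fold brighter than on control (log2 1.02), the last just past 2-fold and no longer so with a pseudocount of 16 (0.97). The first also fell below 2-fold with a pseudocount of 64 (0.90), and Snai2 was not bright with the filter at percentile 75. Its 1.02 lay within the 95th percentile of 1.64, and 27.9% of 12010 bright genes differed at least as much. Its 1.12 was beyond 0.42, and 2.76% of 11212 differed at least as much. That disagreement was taken from probe sets above the median on both arrays, which Snai2 was in no comparison.

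Sox9 and Tfap2a differed by less than 2-fold in every comparison. Sox9, the SoxE factor of crest and chondrocytes, had intensities of 2888, 3167 and 2337 on control, high doxycycline and tumor. It was 1.35-fold dimmer on tumor than on high doxycycline (log2 -0.44, against a 95th percentile of 0.42), and 13.2% of 11212 bright genes differed at least as much. Its differences from control of 0.13 and -0.31 were below the median disagreement of 0.33, the first turning to -0.15 under quantile normalization. Tfap2a, the AP-2 alpha gene, had 575, 848 and 721, and all its differences stayed below 2-fold, the largest being 0.56 for high doxycycline against control. Foxd3, a forkhead repressor, was listed at exactly 175.9 on every array. Such identical values were held by 15.0% of all probe sets, by 25.7% of those at or below the median on all 3 arrays and by 7.07% of those above it on all 3. The reason for the equality was not given in the sources used here, so it is no measurement of an unchanged level.

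Of the 8 genes, 6 were bright in high doxycycline against control. By count, 1 of these 6, Twist1, was at least 2-fold brighter on high doxycycline and 0 were dimmer, where 17.4% of 11933 bright genes were brighter and 8.45% dimmer. Against control, 3 of 7 bright members were brighter on tumor (Ngfr, Snai2 and Twist1) and 0 dimmer, where 18.5% of 12010 bright genes were brighter and 10.2% dimmer. Against high doxycycline, 2 of 7 bright members were brighter on tumor (Ngfr and Snai2) and 0 dimmer, where 1.58% of 11212 bright genes were brighter and 1.94% dimmer. Snai2 passed the filter only through tumor, where it is high, so its place in both counts with tumor carries no weight against these shares. Without it the numbers are 2 and 1, and the last was also 1 with the filter at percentile 75 and with a pseudocount of 64. The comparisons with control share that array. Snai1, Twist2, Sox9 and Tfap2a stayed within 2-fold in all 3 comparisons, and Foxd3 was bright in none.

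**Figure D2:**
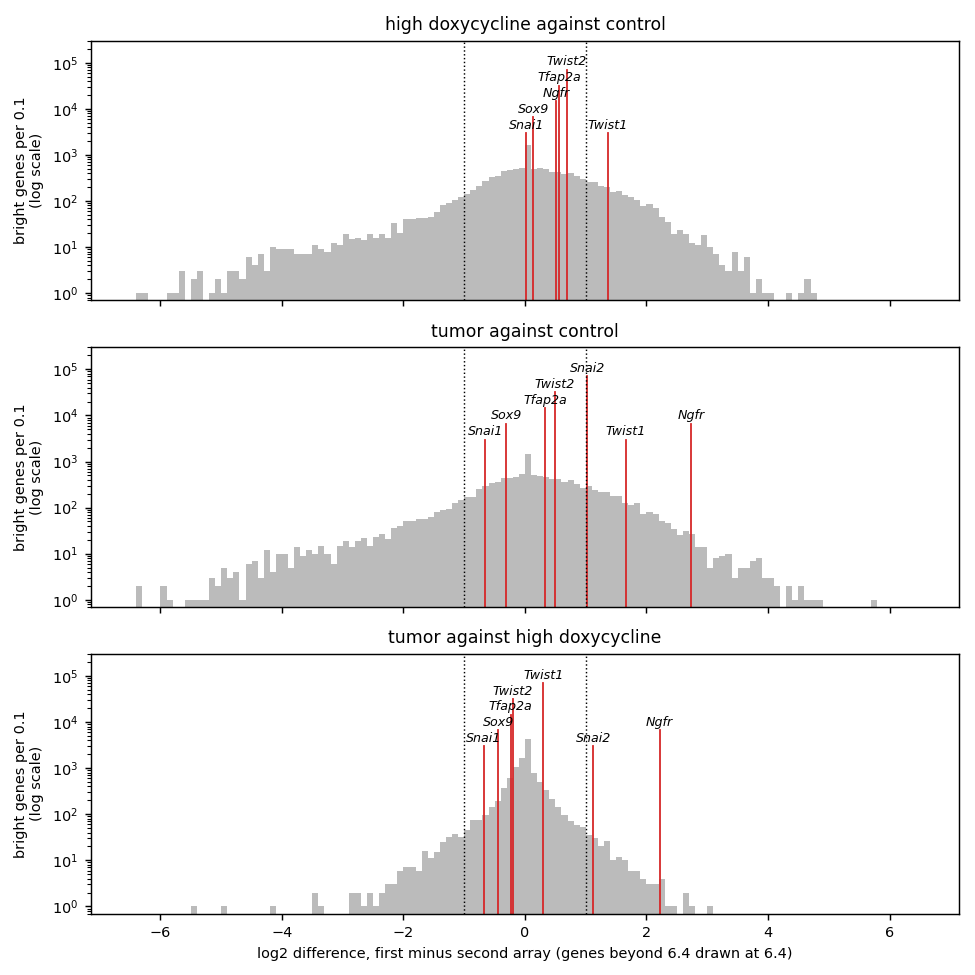
Log2 difference of all bright genes (grey, number of genes per 0.1 on a log axis) in the 3 comparisons, with red lines at the bright members of the 8 genes and dotted lines at 2-fold; the heights of the red lines carry no value. Against control the grey distribution is wide and Twist1 lies within it at 1.36 and 1.66, whereas between tumor and high doxycycline it is narrow and Ngfr at 2.22 lies near its upper end.

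Promoters were examined because ATF1 binds cAMP response elements (CRE) and the fusion keeps that DNA-binding domain. The 250 bases before each RefSeq start site (GRCm38.p6) were available for 6 of the 8 genes, all but Snai2 and Sox9, and the search was for the full CRE TGACGTCA, the shorter CRE core TGACG or CGTCA, and the Snail E-box CAGGTG or CACCTG, on both strands. Foxd3 holds a CRE at bases -233 to -226 from the start, in which 2 cores overlap. Twist1 holds a core at -96 to -92. Snai1 holds an E-box, CACCTG, at -126 to -121. None of the 3 motifs was found in the windows of Ngfr, Twist2 or the 2 start sites of Tfap2a. A CRE was present in 1.55%, a core in 17.8% and an E-box in 17.2% of 32851 windows of this length. The windows of the genes that differed most, Ngfr and Twist1, and of Foxd3, the one with a full CRE, are given with the motif in capitals, 5′ to 3′ on the gene's strand.
Ngfr, chr11:95587699-95587948, minus strand: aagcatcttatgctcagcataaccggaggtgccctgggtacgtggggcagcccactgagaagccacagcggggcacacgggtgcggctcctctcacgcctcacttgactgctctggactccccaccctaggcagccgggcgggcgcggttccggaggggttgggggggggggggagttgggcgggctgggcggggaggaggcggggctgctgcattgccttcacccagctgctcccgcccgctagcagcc
Twist1, chr12:33957421-33957670, plus strand: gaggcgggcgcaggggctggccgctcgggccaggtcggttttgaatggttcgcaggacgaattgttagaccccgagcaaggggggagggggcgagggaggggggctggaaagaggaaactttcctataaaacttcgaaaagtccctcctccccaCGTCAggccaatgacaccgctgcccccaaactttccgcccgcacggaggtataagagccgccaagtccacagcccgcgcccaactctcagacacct
Foxd3, chr4:99656049-99656298, plus strand: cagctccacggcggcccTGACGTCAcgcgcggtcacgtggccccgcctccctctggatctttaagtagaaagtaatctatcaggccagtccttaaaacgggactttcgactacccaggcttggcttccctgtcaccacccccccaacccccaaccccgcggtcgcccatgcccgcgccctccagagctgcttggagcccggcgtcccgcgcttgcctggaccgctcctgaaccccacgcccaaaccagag
Foxd3, the gene with the full CRE, was dim and listed as equal on every array, which is no measurement of an unchanged level. Its motif can thus not be set against a difference. Ngfr, the gene with the widest difference, has no match. These letters are a description, not a binding site, and a window without a match says nothing about ATF1.

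The counts of each list below are to be read beside the shares over all bright genes. On high doxycycline against control 17.4% were at least 2-fold brighter and 8.45% dimmer (median 0.083). On tumor against control the shares were 18.5% and 10.2% (median 0.075), and on tumor against high doxycycline 1.58% and 1.94% (median 0.0). Neurotrophin ligands and receptor partners of Ngfr were mixed. Of 16 measured of 22, 13 were bright against control, and on tumor 3 were at least 2-fold brighter and 3 dimmer (median 0.20, turning to -0.013 under quantile normalization, with 2 brighter). Brighter were Lingo1, which forms a receptor complex with p75 (320, 395 and 1297 on control, high doxycycline and tumor), Sort1, the sortilin co-receptor for proneurotrophins (252, 523 and 973), and the sheddase gene Adam17 (491, 1014 and 1061). Dimmer were Sorcs2, another sortilin-family receptor (1268, 331 and 288), the BDNF receptor gene Ntrk2 (317, 119 and 97.8), and the presenilin gene Psen2 (1911, 799 and 631). Lingo1 was the 1 gene of the list at least 2-fold brighter on tumor than on high doxycycline (3.28-fold). Its order over the arrays was that of Ngfr, but Sort1 and Adam17 had the same order. Bex3, which encodes a p75-interacting protein, differed little, with 4745, 5228 and 5210.

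Partners of Snail and Twist and other EMT factors showed no common direction. Of 24 bright genes (27 measured), 3 were brighter and 1 dimmer on high doxycycline against control (median 0.30), and likewise 3 and 1 on tumor (median 0.027), where a common median of the arrays gave 6 and 1. Id2, an inhibitor that sequesters the E-protein partners of bHLH factors, had 2862, 8692 and 12807. Id1, of the same family, had 1766, 3188 and 3706 and passed 2-fold on tumor alone. Of the deacetylase genes whose products Snai1 recruits, Hdac2 had 919, 3023 and 2666 and Hdac1 had 1815, 3900 and 3380, past 2-fold on high doxycycline alone, while the EMT factor gene Zeb2 had 324, 105 and 102. Zeb1, its paralog, was 1.53-fold and 1.75-fold brighter on high doxycycline and tumor than on control. Foxc2 had 946, 1088 and 476 and, at 2.28-fold dimmer on tumor than on high doxycycline, was the 1 gene of the list past 2-fold there.

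Epithelial genes, which Snail and Twist factors repress, were mostly dim. Of 22, the median was exceeded by 9 on the control array, 5 on the high doxycycline array and 4 on the tumor array. The E-cadherin gene Cdh1, a direct Snail target, lay below the median on all arrays (183, 136 and 131). The 4 genes at least 2-fold dimmer on tumor than on control were Elf3 (3025, 186 and 178), the simple keratin genes Krt8 (950, 284 and 261) and Krt18 (580, 154 and 152), and Ovol2 (405, 196 and 154). They are bright on the array that carries the macrophage, vessel and muscle genes, and the part of those cells was not tested. Mesenchymal genes were lower away from control too: of 19 bright genes 15 were dimmer by at least 2-fold on high doxycycline and 0 brighter (median -2.12), and on tumor 15 were dimmer and 1 was brighter (median -1.71). Matrix genes made up the largest of these, Sparc with 12545, 243 and 398, Lox with 2126, 65.6 and 61.7, and Col1a1 with 10030, 343 and 332. Sparc, Pdgfra and the collagen genes of this list are also in the fibroblast matrix list, so the lists are not separate results. The part of tissue cells was not tested here either. Vim, the vimentin gene of mesenchymal cells, had 10576, 11013 and 11094. Cdh11, the mesenchymal cadherin gene, was the 1 brighter gene, with 2100, 3350 and 6182.

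Of 20 measured cartilage genes and partners of Sox9, 11 exceeded the median on the control array, 9 on the high doxycycline array and 8 on the tumor array. Of 12 bright genes, 1 was dimmer and 0 brighter on high doxycycline than on control, and Comp, the cartilage oligomeric matrix protein gene, was that gene (539, 153 and 132). The cartilage collagen gene Col2a1, a Sox9 target, had 509, 323 and 292. Among AP-2 and Foxd relatives, high doxycycline exceeded control by at least 2-fold in 4 of 8 bright genes and was lower by that margin in 0 (median 0.61). On tumor 4 were brighter and 1 was dimmer than on control (median 0.57). The 4 brighter genes were in both comparisons Foxd1 (81.5, 575 and 828), Tfap2c, the AP-2 gamma gene (230, 848 and 531), Cited2, a co-activator of AP-2 (2493, 5485 and 11019), and Kctd1, an AP-2 repressor (379, 1089 and 1316). Under quantile normalization the first number was 3. Kctd15, a relative of Kctd1, was the dimmer one on tumor, with 1338, 1409 and 657, and with all arrays at a common median none was dimmer.

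Other neural crest specifiers and border genes contained 5 brighter and 3 dimmer of 26 bright genes on high doxycycline against control (median 0.13), and the same numbers on tumor against control (median 0.27). With quantile normalization they were 5 and 5, and 6 and 4. As reported they lay near the shares over all bright genes, 17.4% and 8.45% on high doxycycline and 18.5% and 10.2% on tumor. Dlx1 (169, 1283 and 1458), the border gene Zic2 (187, 1508 and 1477) and Sox11 (876, 3106 and 2463) were low on control and nearer each other on the other arrays, and so was Dlx2 (336, 767 and 816). Rxrg, a retinoid receptor gene of crest cells, was instead highest on high doxycycline (395, 3474 and 992). Dimmer on both than on control were Gbx2 (475, 178 and 173) and Cxcr4 (363, 164 and 142), and Sox4 (593, 225 and 326) was so on high doxycycline. Mycn, at 1273, 1171 and 464, and Rxrg were the 2 genes of this list at least 2-fold dimmer on tumor than on high doxycycline, and 0 were brighter.

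**Figure D3:**
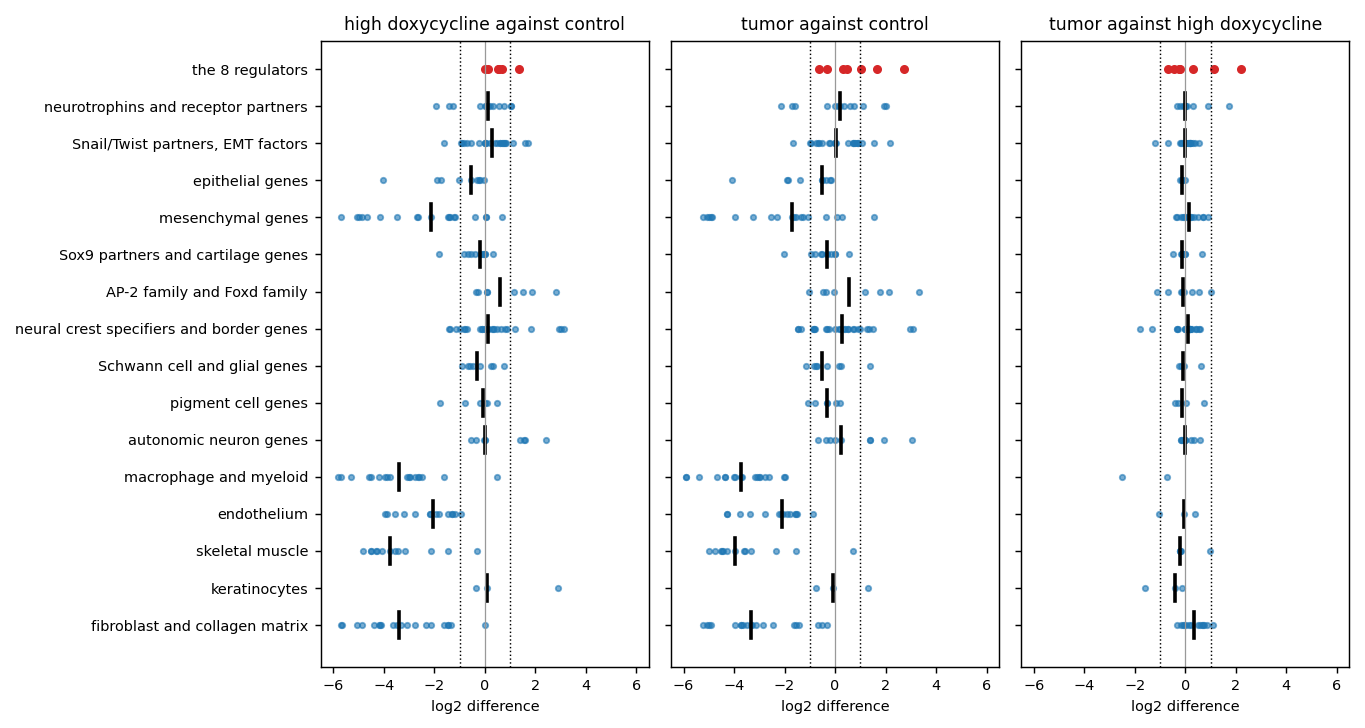
Log2 difference (x axis) of the bright genes of each list in the 3 comparisons, 1 point per gene, with the 8 regulators in red, a black bar at the median of lists with at least 3 bright genes and dotted lines at 2-fold. Most macrophage, endothelial, muscle and matrix genes lie far to the left against control, while the red points lie around and right of 0, and in the third panel most points lie within 2-fold.

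The genes with the pattern most like each member, by the distance between mean-centred log2 values over the 3 arrays among 11337 other genes bright in some comparison, were as follows. For Ngfr the nearest were Vstm2a (88.5, 146 and 583), Ifit3b (37.7, 65.6 and 274) and Trappc3l (166, 268 and 1406), at distances of 0.17 to 0.24. For Twist1 the nearest were Atpaf1, Ginm1 and Hif1a at 0.018 to 0.029, and Hif1a had 2087, 5501 and 6642. For Snai2 they were Eda2r, Sned1 and Tbc1d8 (0.029 to 0.073), and for Snai1 they were the spindle gene Tpx2, the histone gene H2bc9 and Chac1 (0.017 to 0.036). For Twist2, Sox9 and Tfap2a the nearest 3 lay at 0.011 to 0.028. The genes nearest to Ngfr lay farther from it than those nearest to Twist1 did. With 3 arrays a likeness describes these values and nothing more.

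**Figure D4:**
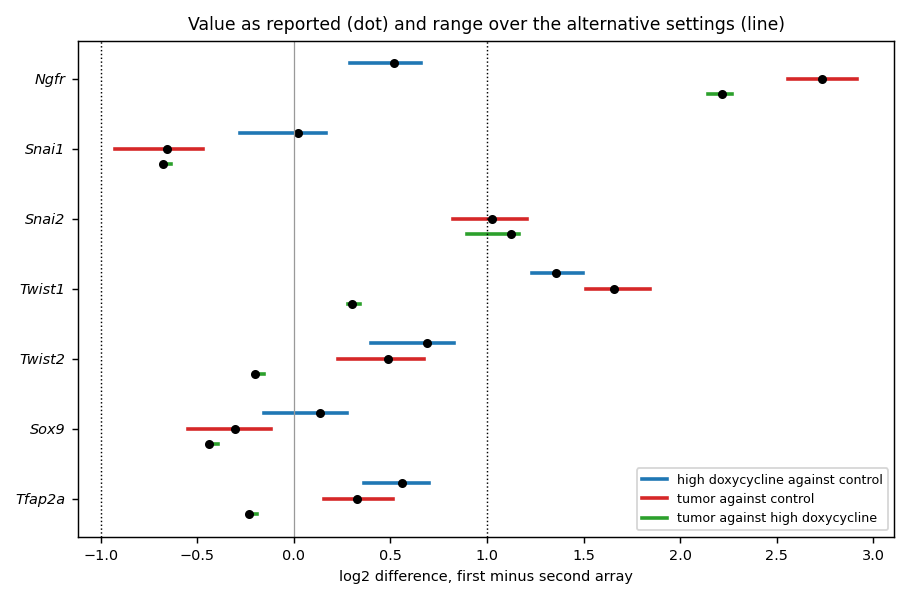
Log2 difference of the 7 genes that were bright in a comparison, as reported (black dot) and over the alternative settings (coloured line, 6 or 7 settings), with dotted lines at 2-fold. Ngfr stays at 2.14 or more in both comparisons with tumor, Twist1 at 1.23 or more in both with control, and the lines of Snai2 cross the 2-fold line.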

How the data were processed

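Biotin-labelled RNA was run on MoGene-1_0-st-v1 arrays of Affymetrix, per the labels, with 1 array in each of 3 groups. The authors deposited linear intensities, with 1 value for each probe set. Background correction, summarisation and normalization between arrays were not given in the sources used here. Probe sets were named through the platform annotation (21789 with 1 symbol, 1621 with several, 5446 with none), and those without exactly 1 symbol were left out. Of the 21789, 21698 were found in the RefSeq table (GRCm38.p6) and 0 symbols differed. Where a gene had more than 1 probe set, that of highest mean was used. Differences are of log2(intensity + 1), and a gene counted as bright above percentile 50 of the brighter array. A shift to a common median would add 0.14 to every difference of high doxycycline against control, 0.19 to tumor against control and 0.044 to tumor against high doxycycline.

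The genes and the 15 lists (members left out of them) were chosen with earlier results of these data known. Of 287 list entries 272 were measured, and the others were not analysed here. Named genes are the 8 members, up to 4 bright genes per list with the largest difference of at least 2-fold, and the 3 genes of nearest pattern. Known targets or partners and the rest of small counts (Adam17, Psen2, Bex3, Id1, Hdac1, Zeb1, Cdh1, Vim, Cdh11, Col2a1, Sox10, Kctd15, Dlx2, Gbx2, Cxcr4, Sox4, Mycn, Mitf, Tyr, S100b, Pmp22, Col6a1, Mb, Plvap, Egfl7, Cd14, Pdgfra, Phox2a, Th, Dbh, Prrx1, Chgb) were added after their values were seen. The alternatives were a common median, quantile normalization, no filter, a filter at percentile 75, the mean over probe sets, pseudocounts of 16 and 64 and a 1.5-fold threshold. Python 3.11.15, pandas 2.3.3 and numpy 2.4.6 were used, and the computation was tested on simulated data. The number of arrays limits the precision.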

Additional observations from a re-analysis of the deposited data

How the results depend on the processing

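No paired analysis was possible because each group has 1 array. Over 135 recomputed differences of the members, 132 moved by no more than the median disagreement between probe sets, 3 moved further and 0 of the called values changed sign. Much of this count was fixed beforehand. Each member has 1 probe set, so the filters and the mean over probe sets could not change a difference. The common median adds a constant smaller than the median disagreement of each comparison. Only quantile normalization and the pseudocounts could move a value further. The signs of Snai1 (-0.28) and Sox9 (-0.15) between high doxycycline and control, which were small, were negative under quantile normalization. The number of members at least 2-fold apart between tumor and high doxycycline fell from 2 to 1 with the filter at percentile 75, because Snai2 was left out, and to 1 with a pseudocount of 64, where Snai2 had 0.90. Between high doxycycline and control it rose from 1 to 2 at 1.5-fold, where Twist2 was added. Between tumor and control it was 2 to 4 over all settings. Ngfr between tumor and high doxycycline ranged from 2.14 to 2.27, and Twist1 between tumor and control from 1.51 to 1.84. Foxd3 passed no brightness filter.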

Other observations

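Derivatives of the neural crest other than those of the report differed in direction between the lists. Of 14 measured autonomic neuron genes, 9 were bright against control. On both high doxycycline and tumor, 4 of these 9 exceeded control by at least 2-fold, and 0 were dimmer by that margin. Over all bright genes 17.4% and 18.5% were brighter. Gata3, a factor of sympathetic neurons, had 252, 1367 and 2076 on control, high doxycycline and tumor, the chromogranin gene Chga had 2060, 6216 and 7807, Stmn2 had 1976, 5192 and 5186, and Isl1 had 163, 473 and 424. The autonomic regulator gene Phox2a (165, 128 and 113) and the catecholamine enzyme genes Th (197, 173 and 173) and Dbh (121, 107 and 107) lay below the median on every array. The medians of the 9 bright genes were 0.0 and 0.22, and the first was -0.079 under quantile normalization. In the pigment cell list 0 of 6 bright genes were brighter by that margin and Gpnmb (1292, 373 and 619), which macrophages also express, was dimmer on high doxycycline than on control. Mitf, the pigment cell regulator, differed little (1281, 1344 and 1018 on its brighter probe set), and tyrosinase, Tyr, was listed at 55.1 on every array. In the Schwann cell list L1cam was brighter on tumor than on control (304, 516 and 799) and Gfra3 dimmer (374, 200 and 169; under 2-fold with the arrays at a common median), while S100b had 3574, 4256 and 4156. In the keratinocyte list Dsg3 was the 1 gene of 3 bright past 2-fold against control (123, 918 and 305).

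Of 260 distinct list genes, 15 held identical values on all arrays, and some were bright: Prrx1, a mesenchymal homeobox gene, was listed at 5931 and the secretogranin gene Chgb at 7406 on each.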
